A study of Homo sapiens with 7 samples.

Results

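Transforming growth factor beta (TGF-beta) signalling was followed at the RNA level in Huh-7, a human hepatocellular carcinoma cell line, through 10 genes of the 58174 in the deposited table. These were the rows whose symbol was that of a ligand (TGFB1, TGFB2), a receptor (TGFBR1, TGFBR2), a signal-transducing SMAD (SMAD2, SMAD3, SMAD4), an inhibitory SMAD (SMAD6, SMAD7) or THBS1, which encodes thrombospondin 1. Each symbol matched 1 row. The rows were picked by symbol, from a list drawn up with earlier results of these data known. Cells had been transfected with a control siRNA (siC, 3 libraries) or with a pool of siRNAs directed against the mRNA-binding protein IGF2BP1 (siIGF2BP1, 4 libraries, named siImp1 in the table). Total RNA was taken 72 h after transfection from cells that carried no other labelled treatment and had been grown in medium with serum. A single cell line was used, and the pool lowers IGF2BP1 without removing it, so the values describe 1 line under a partial loss. The labels do not say that the replicates were separate cultures, so p-values measure only the spread between these samples, which may be technical.

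TGF-beta is secreted in a latent form, bound to its own propeptide, and has to be activated outside the cell. Thrombospondin 1 is among the proteins that can activate it. The active dimer joins the type II receptor TGFBR2 to the type I receptor TGFBR1, which phosphorylates SMAD2 and SMAD3, and these enter the nucleus with SMAD4 to alter transcription. The related bone morphogenetic proteins (BMPs) act through SMAD1, SMAD5 and SMAD9. SMAD6 and SMAD7 are themselves induced by these pathways and restrain them, SMAD6 mainly in the BMP branch and SMAD7 in both. In the liver, TGF-beta is known for halting hepatocyte growth and driving fibrosis, and BMP signalling for inducing the iron hormone hepcidin.

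Values are FPKM, fragments scaled to gene length and to a library size, so levels of different genes can be compared per length. This library size was 0.964 to 0.984 times the reads on genes in siC and 1.012 to 1.028 times in siIGF2BP1. Depth ran from 12826550 to 33212205 reads on genes. The targeted transcript was lower in each siIGF2BP1 library: IGF2BP1 was at 80.4 to 84.4 FPKM in siC and at 15.3 to 16.6 FPKM in siIGF2BP1 (log2 change -2.37). SRF, the transcript the study followed, was at 15.5 to 15.7 FPKM and at 6.95 to 8.19 FPKM (log2 change -1.04, limma adjusted p = 0.000536). The library siC replicate 3 stood apart from the rest. Its log2 values correlated with those of the other libraries with r from 0.892 to 0.929 over 14839 genes, and all pairs without it had r from 0.938 to 0.971. Results are given with and without it where they rest on it. The hepatocyte and liver tumour markers were all measured (10 of 10, summed 6366 to 8166 FPKM in siC and 7549 to 7786 FPKM in siIGF2BP1). Markers of stellate cells (summed 11.6 to 12.1 and 11.5 to 12.1 FPKM), endothelium (2.59 to 3.08 and 2.86 to 3.32 FPKM) and leukocytes (148 to 164 and 115 to 131 FPKM, nearly all of it LYZ) were low beside them. The part of such cells in the results was not tested. DES, KDR and TEK were listed at 0 in all 7 libraries, and DCN, CDH5, PTPRC and CD68 were at or near 0. CD14 of the leukocyte list was at 0.462 to 1.24 FPKM in siC and 2.04 to 2.66 FPKM in siIGF2BP1 (log2 change 1.33, limma adjusted p = 0.0338, and 0.00984 without siC replicate 3). With a siC mean of 0.892 FPKM, CD14 reached the filter of a mean of 1 FPKM only through siIGF2BP1. Its siC values rest on 40, 75 and 12 reads. LYZ moved the other way: siC libraries held 147 to 162 FPKM and siIGF2BP1 libraries 113 to 129 FPKM. For LYZ the fit gave -0.37 on the log2 scale (limma adjusted p = 0.0222). Leaving out siC replicate 3 made this -0.42 (limma adjusted p = 0.00502).

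Of the 10 genes, 9 reached a mean of 1 FPKM over the 7 libraries and were tested with the 14839 genes that did. TGFB2 was under this filter. At a limma adjusted p of at most 0.01, THBS1, SMAD6 and SMAD7 were higher in siIGF2BP1 and none was lower. That is 3 of 9 tested, beside 1.65% of all genes tested that were called higher and 2.28% that were called lower. At an unadjusted p under 0.05, 4 were higher and 0 lower, beside 11.0% and 14.8% of all genes tested. The values of siC and siIGF2BP1 did not overlap for 4 of the 9, beside 27.0% of all genes tested. The median log2 change of the 9 was 0.029 (0.27 without siC replicate 3), and that of all genes tested was -0.017. Given how the genes were chosen, the counts describe these genes and no more. In RNA from whole cultures, fewer cells that express a gene and less of its RNA per cell cannot be told apart.

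**Figure D1:**
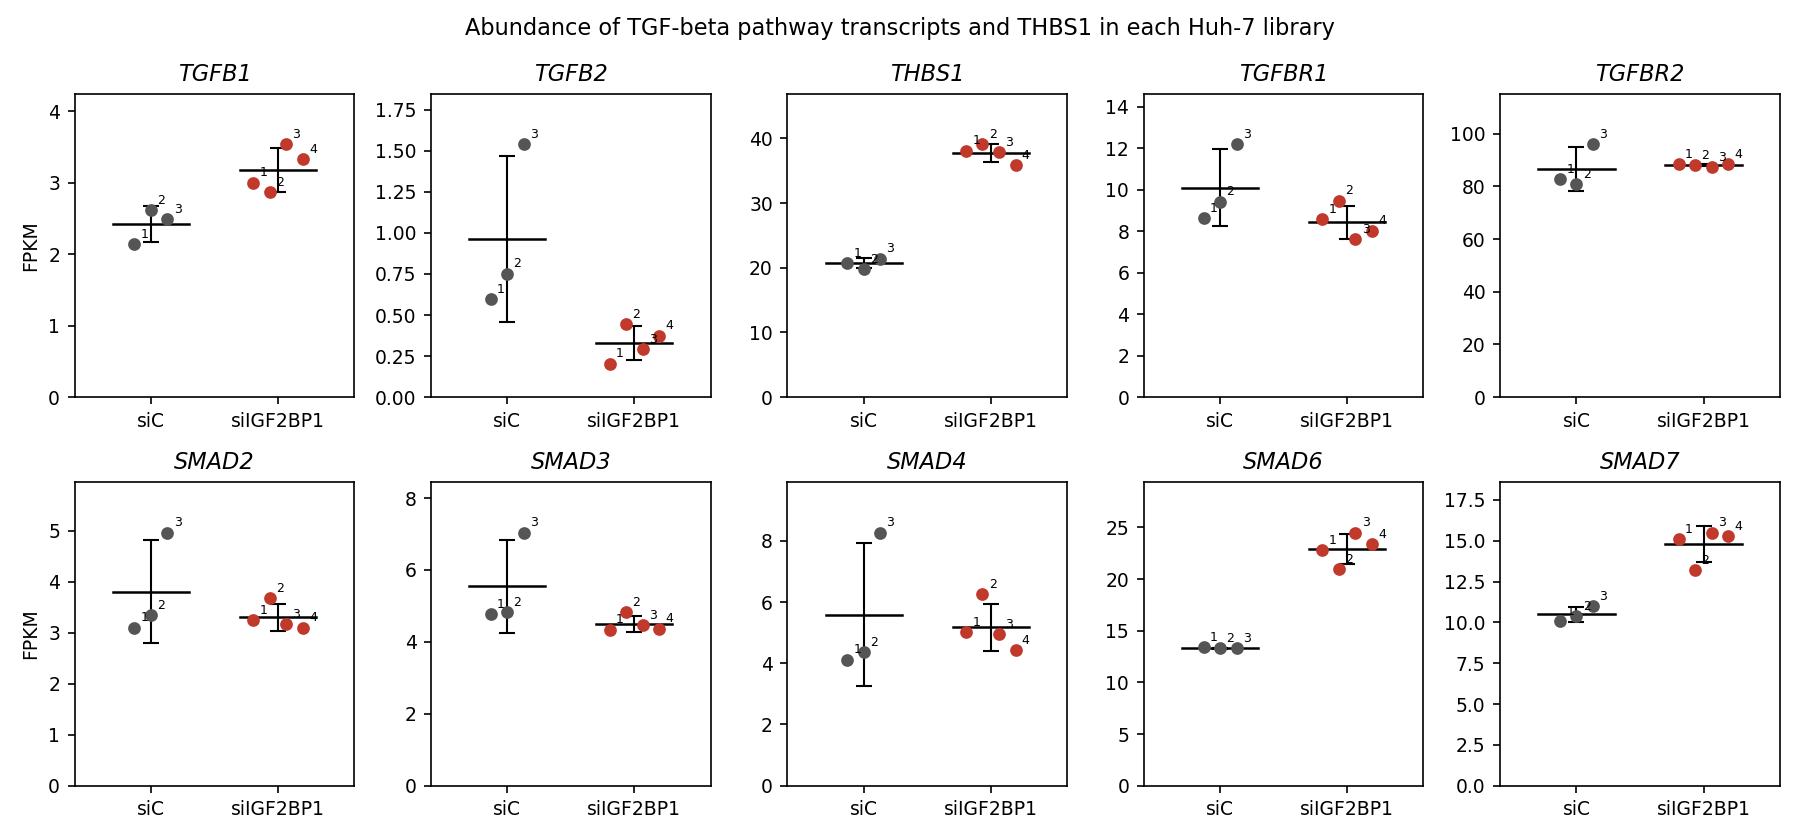
FPKM (linear axes from 0) of the 10 genes in each library, with siC in grey and siIGF2BP1 in red. Points are libraries numbered by replicate, and lines with bars are the mean ± SD (n = 3 and n = 4). For THBS1, SMAD6, SMAD7 and TGFB1 every red point lies above every grey one, and for TGFB2 below. For TGFB2, TGFBR1, TGFBR2, SMAD2, SMAD3 and SMAD4 the highest point is siC replicate 3.

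THBS1, a secreted matrix glycoprotein that can release TGF-beta from its latent complex, had the smallest adjusted p and the largest log2 change of the 9 genes tested. It was at 20.7, 19.8 and 21.4 FPKM in siC replicates 1 to 3 and at 38.1, 39.1, 37.9 and 35.8 FPKM in siIGF2BP1 replicates 1 to 4. The groups were far apart, and within each of them the libraries lay close together. The means were 20.7 FPKM (SD 0.800, n = 3) against 37.7 FPKM (SD 1.41, n = 4), a log2 change of 0.86 (SE 0.0589, 95% interval 0.73 to 1.00, limma adjusted p = 0.000536), or 1.82-fold. The call held in 7 of 7 fits that each left out a library, with log2 changes from 0.84 to 0.89. Between 2702 and 6718 reads lay behind each value. THBS1 (ENSG00000137801) lies on chromosome 15, 39581079 to 39599466, plus strand (GRCh38). Its exons overlap those of FSIP1 and of the antisense gene THBS1-AS1 on the other strand, and whether reads were counted by strand is not given in the sources used here, so its values are uncertain to that extent.

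Of the other thrombospondin genes, THBS4 was also abundant, at 17.0 FPKM in siC (SD 3.18, n = 3) against 19.6 FPKM in siIGF2BP1 (SD 1.44, n = 4) (log2 difference 0.22, limma adjusted p = 0.376). THBS3 was at 0.442 FPKM (SD 0.0734, n = 3) against 0.542 FPKM (SD 0.115, n = 4), and THBS2 and COMP were at or near 0. The thrombospondin 1 receptor CD47 was at 2.41 FPKM (SD 0.405, n = 3) against 2.60 FPKM (SD 0.320, n = 4), with a limma adjusted p of 0.694. CD36, another of its receptors, was under the filter, at 0.0408 to 0.0833 FPKM in siC and 0.136 to 0.198 FPKM in siIGF2BP1. Its groups did not overlap, on 8 to 28 reads a library (log2 change 0.72, limma adjusted p = 0.138 in the fit without a filter). Of the 7 genes in this family and its receptors, 3 were tested and 1, THBS1, was called, beside 1.65% of all genes tested called higher. The protein-coding genes whose log2 values followed those of THBS1 most closely over the 7 libraries were SLC26A3, an anion exchanger (Pearson r = 0.9983), ABCA1, a cholesterol exporter (r = 0.9965), and GCNT1, a glycosyltransferase (r = 0.9963), out of 10671 searched. These r values describe libraries that fall into 2 groups, and all 3 genes were higher in siIGF2BP1, by 1.52, 0.79 and 1.22 on the log2 scale.

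SMAD6, which binds activated BMP receptors and competes for SMAD partners, was the other large change. It was at 13.4, 13.3 and 13.3 FPKM in siC and at 22.8, 21.0, 24.5 and 23.4 FPKM in siIGF2BP1. The siC libraries were nearly equal, siC replicate 3 included, and the groups did not overlap. The means were 13.3 FPKM (SD 0.0372, n = 3) against 22.9 FPKM (SD 1.43, n = 4), a log2 change of 0.78 (SE 0.0656, 95% interval 0.62 to 0.93, limma adjusted p = 0.00108), or 1.71-fold. The call held in 7 of 7 fits that each left out a library. SMAD6 (ENSG00000137834) lies on chromosome 15, 66702236 to 66782849, plus strand, and no annotated exon of another gene overlaps it.

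SMAD7, which blocks the type I receptor and brings ubiquitin ligases to it, was at 10.1, 10.4 and 11.0 FPKM in siC and at 15.1, 13.2, 15.5 and 15.3 FPKM in siIGF2BP1. The groups did not overlap, and siIGF2BP1 replicate 2 was the nearest to siC. The means were 10.5 FPKM (SD 0.451, n = 3) against 14.8 FPKM (SD 1.08, n = 4), a log2 change of 0.48 (SE 0.0766, 95% interval 0.30 to 0.66, limma adjusted p = 0.00965), or 1.40-fold. This call lay at the threshold. It held in 1 of 7 fits that each left out a library, the one without siC replicate 3 (limma adjusted p = 0.00556), and the other 6 had adjusted p from 0.0103 to 0.0453. The log2 change itself stayed between 0.46 and 0.54 in these fits. SMAD7 (ENSG00000101665) lies on chromosome 18, 48919853 to 48950965, minus strand, with no overlapping exon of another gene.

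SMAD6 stood above SMAD7 in every library, and its ratio to SMAD7 in FPKM was 1.21 to 1.32 in siC and 1.51 to 1.6 in siIGF2BP1. All 8 SMAD genes were measured. Their summed level was 57.7 to 72.9 FPKM in siC and 83.5 to 85.8 FPKM in siIGF2BP1. SMAD6 and SMAD7 together made up 33.4 to 40.7% of that sum in siC and 40.9 to 46.6% in siIGF2BP1. These ranges do not overlap but nearly touch. The gap between 40.7% (siC replicate 1) and 40.9% (siIGF2BP1 replicate 2) is small beside the spread in either group. The share of SMAD2 was 5.37 to 6.80% in siC and 3.66 to 4.41% in siIGF2BP1, and that of SMAD3 was 8.0 to 9.66% and 5.10 to 5.79%. The size of the SMAD2 share depends on the length of 36366 bases to which it was scaled. Shares of a sum are bound to each other, so a larger part for some members goes with a smaller part for others. The share of SMAD4 overlapped between the groups (7.14 to 11.3% and 5.26 to 7.49%), as did that of SMAD7 alone (15.1 to 17.6% and 15.8 to 18.1%), whereas that of SMAD6 did not (18.3 to 23.1% and 25.2 to 28.5%). The BMP-branch SMADs make up most of the rest. SMAD5 was the most abundant SMAD in siC (24.8 to 27.1%), and in siIGF2BP1 its share (25.5 to 28.3%) overlapped that of SMAD6. SMAD9 passed the test, at 2.38 FPKM (SD 0.297, n = 3) against 4.31 FPKM (SD 0.145, n = 4), with a fitted log2 difference of 0.84 (limma adjusted p = 0.00341). SMAD9 was called in 1 of 7 fits that left out a library. SMAD1 (log2 change 0.27, limma adjusted p = 0.0420) and SMAD5 (0.45, limma adjusted p = 0.0429) did not pass it. Without siC replicate 3, SMAD5 passed (0.58, limma adjusted p = 0.00155).

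**Figure D2:**
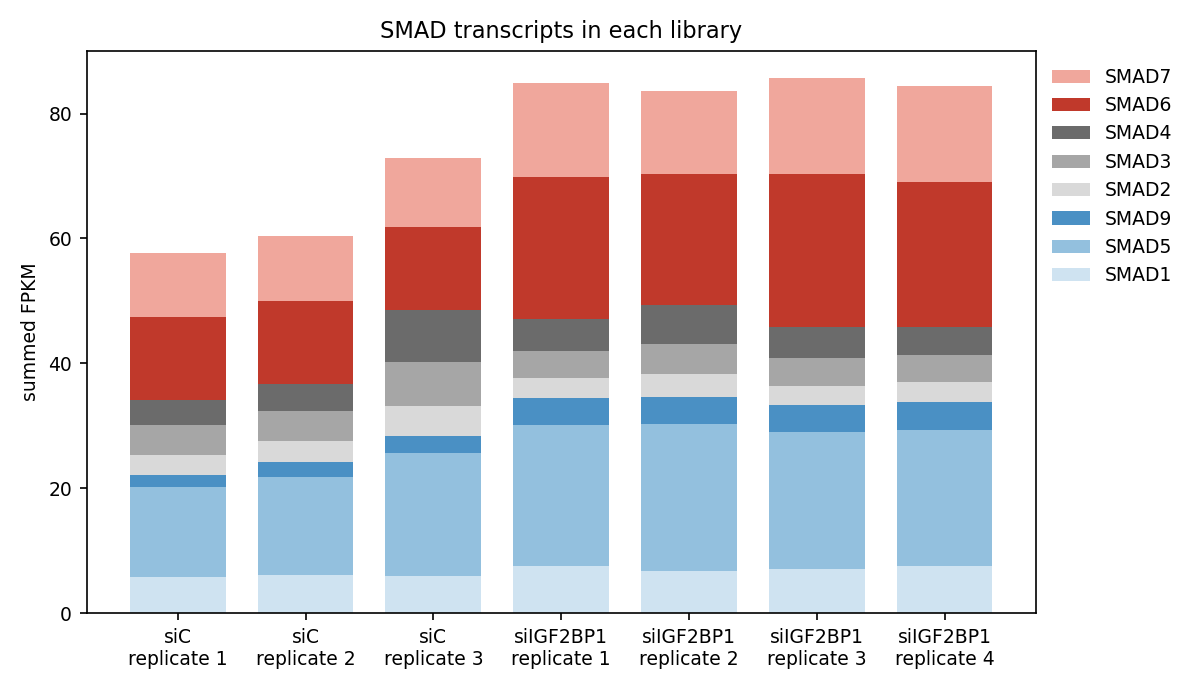
Summed FPKM of the 8 SMAD genes in each library (linear axis from 0), stacked by gene. SMAD6 and SMAD7 are in red tones, SMAD2, SMAD3 and SMAD4 in grey tones, and the BMP-branch SMAD1, SMAD5 and SMAD9 in blue tones. The bars of siIGF2BP1 reach 83.5 to 85.8 FPKM and those of siC 57.7 to 72.9 FPKM, with siC replicate 3 the tallest of siC, and the red parts are thicker in siIGF2BP1.

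The promoters of the 3 genes that rose are shown for the motifs that SMAD proteins bind. The sequences are the 250 bases before the RefSeq start site (GRCh38.p14), read 5′ to 3′ on the strand of the gene. Capitals mark CAGAC, a box bound by SMAD3 and SMAD4, or GTCTAGAC, the palindromic SMAD binding site.
SMAD6, chr15:66701986-66702235, plus strand: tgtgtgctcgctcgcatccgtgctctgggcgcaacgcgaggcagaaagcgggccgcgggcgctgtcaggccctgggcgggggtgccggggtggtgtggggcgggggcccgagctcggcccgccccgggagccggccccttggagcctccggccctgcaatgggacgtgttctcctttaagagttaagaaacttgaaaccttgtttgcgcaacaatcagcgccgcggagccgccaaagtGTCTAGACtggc
SMAD7, chr18:48950966-48951215, minus strand: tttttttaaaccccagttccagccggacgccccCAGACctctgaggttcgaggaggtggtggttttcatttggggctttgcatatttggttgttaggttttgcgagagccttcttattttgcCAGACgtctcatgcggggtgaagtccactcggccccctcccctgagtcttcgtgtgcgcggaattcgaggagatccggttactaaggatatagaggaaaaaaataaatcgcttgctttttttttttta
THBS1, chr15:39580829-39581078, plus strand: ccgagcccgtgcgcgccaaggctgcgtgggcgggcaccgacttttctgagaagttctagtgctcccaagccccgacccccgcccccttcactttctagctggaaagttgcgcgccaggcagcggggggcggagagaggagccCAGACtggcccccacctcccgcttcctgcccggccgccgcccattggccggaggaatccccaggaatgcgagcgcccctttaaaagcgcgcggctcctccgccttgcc

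The promoter of SMAD6 holds GTCTAGAC starting 12 bases before the start site and no CAGAC. That of SMAD7, at the first of 3 listed start sites, holds CAGAC starting 217 and 128 bases before it, and that of THBS1 holds CAGAC starting 108 bases before it. Both strands were searched over windows that ran to 50 bases past the start, and GTCTAGAC contains neither CAGAC nor its reverse complement. Among 35116 promoters of the same length, CAGAC was in 45.3% and GTCTAGAC in 0.202% (71 promoters). The CArG box, to which SRF binds, was in 1.29% of promoters and in none of these 3. Of the other 7 genes, TGFBR1 held it, at 1 of 8 listed start sites. CAGAC is so frequent that its presence sets no promoter apart. GTCTAGAC was added to the search after the other motifs, so its match in SMAD6 is a description only, and its part in the change was not tested. All 10 genes matched an entry, some with several start sites. Outside the 3 that rose, CAGAC was in the window of at least 1 start site of TGFB2, TGFBR1 and SMAD3, and in none of TGFB1, TGFBR2, SMAD2 and SMAD4. A match is a stretch of letters and not a measured binding site.

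TGFB1, the ligand made by most cell types, was low in Huh-7. It was at 2.14, 2.62 and 2.49 FPKM in siC and at 3.0, 2.87, 3.54 and 3.33 FPKM in siIGF2BP1. The groups did not overlap, but the lowest siIGF2BP1 library lay close to the highest siC library. The means were 2.42 FPKM (SD 0.252, n = 3) against 3.18 FPKM (SD 0.309, n = 4), a log2 change of 0.38 (SE 0.115, 95% interval 0.11 to 0.66). This did not pass the threshold (limma adjusted p = 0.0793, unadjusted p = 0.0119), nor did it in any of the 7 fits that left out a library. Between 111 and 272 reads lay behind these values. TGFB1 (ENSG00000105329, chromosome 19, 41301587 to 41353922, minus strand) overlaps exons of HNRNPUL1 on the other strand.

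TGFB2, the isoform linked to mesenchymal and cardiac development, was lower in each siIGF2BP1 library than in any siC library. It was at 0.596, 0.752 and 1.54 FPKM in siC and at 0.204, 0.445, 0.293 and 0.374 FPKM in siIGF2BP1. The siC value rests strongly on replicate 3, which was further above replicate 2 than the remaining libraries were spread. The means were 0.962 FPKM (SD 0.505, n = 3) against 0.329 FPKM (SD 0.104, n = 4), so siIGF2BP1 was at 34.2% of siC. In the fit without a filter on low values the log2 change was -1.24 (SE 0.372, 95% interval -2.12 to -0.36, limma adjusted p = 0.153), and -0.88 without siC replicate 3 (limma adjusted p = 0.191). The reads were few, 67, 124 and 109 in siC and 19, 43, 20 and 25 in siIGF2BP1. With voom on these reads, which weighs each value by its precision, the log2 change was -1.38 with an adjusted p of 0.0431, which is also over 0.01. TGFB2 (ENSG00000092969, chromosome 1, 218345336 to 218444619, plus strand) shares exonic sequence with the long noncoding genes TGFB2-AS1 on the other strand and TGFB2-OT1 on its own.

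With TGFB3, at 0.787 FPKM (SD 0.0589, n = 3) against 0.798 FPKM (SD 0.110, n = 4), the summed level of the TGF-beta ligands was 3.58 to 4.81 FPKM in siC and 3.98 to 4.6 FPKM in siIGF2BP1. These sums overlapped. The make-up differed: TGFB1 was 51.8 to 63.9% of the sum in siC and 71.9 to 77.5% in siIGF2BP1, and TGFB2 was 16.6 to 32.0% and 4.98 to 11.2%. The share of TGFB3, 16.3 to 23.7% and 16.1 to 21.7%, overlapped.

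TGFBR2, the type II receptor that binds the ligand first, was the most abundant of the 10 transcripts. It was at 82.7, 80.9 and 96.0 FPKM in siC and at 88.5, 88.1, 87.3 and 88.3 FPKM in siIGF2BP1. The siIGF2BP1 libraries were within a narrow band that lay inside the range of siC. The log2 change was 0.03 (SE 0.0738, 95% interval -0.14 to 0.20, limma adjusted p = 0.854). Without siC replicate 3 it was 0.11 (limma adjusted p = 0.0539). At 5394 to 12193 reads a library, its interval is among the narrowest of the 10 genes.

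TGFBR1, the type I receptor kinase, was at 8.63, 9.43 and 12.2 FPKM in siC and at 8.60, 9.48, 7.63 and 8.03 FPKM in siIGF2BP1. The groups overlapped, and siC replicate 3 was the highest library. The log2 change was -0.24 (SE 0.133, 95% interval -0.56 to 0.07, limma adjusted p = 0.306), and -0.10 without siC replicate 3. The ratio of TGFBR2 to TGFBR1 in FPKM was 7.89 to 9.59 in siC and 9.29 to 11.4 in siIGF2BP1. TGFBR3, betaglycan, a co-receptor that presents TGF-beta to TGFBR2, was called lower, at 9.64 FPKM (SD 1.26, n = 3) against 6.14 FPKM (SD 0.207, n = 4), with a fitted log2 difference of -0.63 (limma adjusted p = 0.00730). It was called in 1 of 7 fits that left out a library. Its share of the summed TGFBR1, TGFBR2 and TGFBR3 level was 8.55 to 9.39% in siC and 5.80 to 6.09% in siIGF2BP1, and that of TGFBR2 was 80.6 to 82.8% and 84.8 to 86.6%. TGFBR2 (ENSG00000163513) lies on chromosome 3, 30606601 to 30694142, and TGFBR1 (ENSG00000106799) on chromosome 9, 99104038 to 99154192, both on the plus strand and free of overlapping exons.

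SMAD2, a substrate of TGFBR1, was at 3.10, 3.34 and 4.96 FPKM in siC and at 3.24, 3.68, 3.17 and 3.10 FPKM in siIGF2BP1. Apart from siC replicate 3, all libraries lay between 3.10 and 3.68 FPKM. The log2 change was -0.17 (SE 0.166, 95% interval -0.56 to 0.22, limma adjusted p = 0.585), and 0.03 without siC replicate 3. SMAD2 had been scaled to a length of 36366 bases, the longest of the 10 genes, so its FPKM is low for its 1461 to 3895 reads.

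SMAD3, the other substrate of TGFBR1 and one that binds DNA itself, was at 4.77, 4.83 and 7.04 FPKM in siC and at 4.34, 4.83, 4.47 and 4.37 FPKM in siIGF2BP1. Here too siC replicate 3 stood alone, and the remaining libraries of siC were within or at the top of the siIGF2BP1 range. The log2 change was -0.27 (SE 0.143, 95% interval -0.61 to 0.06, limma adjusted p = 0.287), and -0.09 without siC replicate 3.

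SMAD4, the shared partner of the TGF-beta and BMP SMADs, was at 4.12, 4.37 and 8.27 FPKM in siC and at 5.03, 6.25, 4.96 and 4.44 FPKM in siIGF2BP1. With siC replicate 3 the groups overlapped, and without it every siIGF2BP1 library was above siC. The log2 change was -0.05 (SE 0.25, 95% interval -0.63 to 0.54, limma adjusted p = 0.938) and turned to 0.27 without siC replicate 3 (limma adjusted p = 0.196). Neither direction passed the test. SMAD4 (ENSG00000141646, chromosome 18, 51028528 to 51085045, plus strand) shares exons with a protein-coding gene on its own strand, ENSG00000267699, so its reads are uncertain. SMAD2 (ENSG00000175387, chromosome 18, 47808957 to 47931146, minus strand) overlaps no other exons, and SMAD3 (ENSG00000166949, chromosome 15, 67063763 to 67195173, plus strand) overlaps those of a long noncoding gene on the other strand.

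The 10 genes thus differed in how far siC replicate 3 set their value. Its log2 level minus the mean of siC replicates 1 and 2 was 1.09 for TGFB2, 0.95 for SMAD4, 0.61 for SMAD2, 0.54 for SMAD3 and 0.43 for TGFBR1, higher than in 96.2%, 94.8%, 88.7%, 86.9% and 82.3% of the genes tested. It was 0.23 for TGFBR2, 0.10 for SMAD7, 0.08 for THBS1, 0.07 for TGFB1 and 0.00 for SMAD6. What set this library apart was not tested. The 3 called genes were among those it moved least, and without it their log2 changes were 0.89 (THBS1), 0.78 (SMAD6) and 0.52 (SMAD7).

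**Figure D3:**
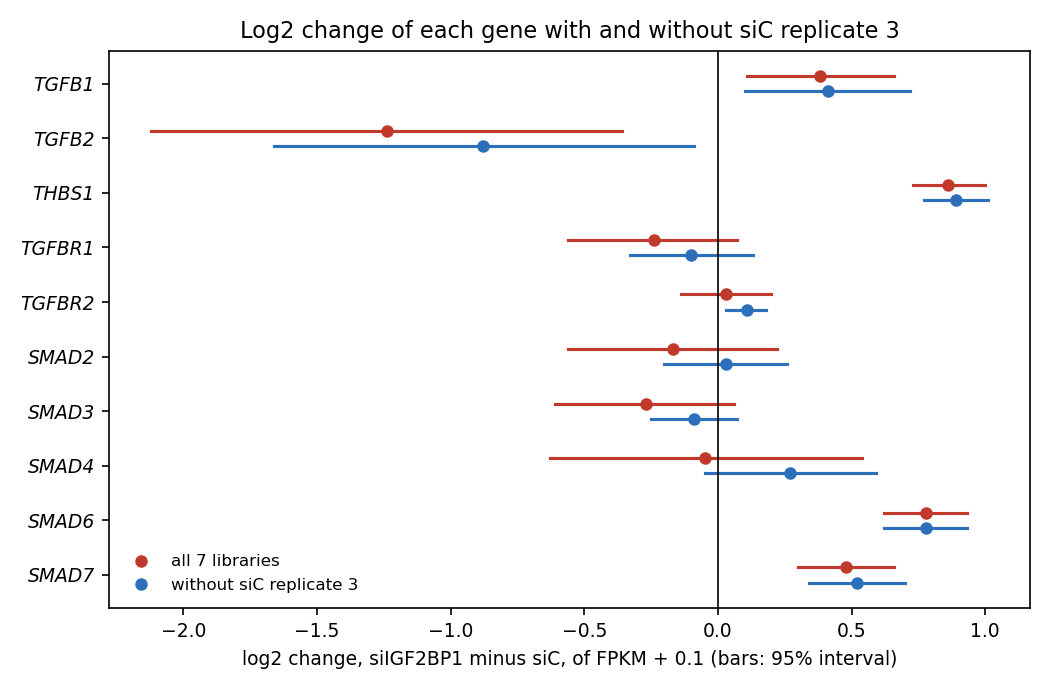
Log2 change (siIGF2BP1 minus siC, of FPKM + 0.1) of each of the 10 genes, with all 7 libraries in red and without siC replicate 3 in blue. Points are the fitted change and bars its 95% interval, and TGFB2 comes from the fit without a filter on low values. The intervals of THBS1, SMAD6, SMAD7, TGFB1 and TGFB2 lie off 0 in both fits, and the point of SMAD4 moves from -0.05 to 0.27.

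Ordered by mean FPKM in siC, the 10 transcripts ran from TGFBR2 (86.5) through THBS1 (20.7), SMAD6 (13.3), SMAD7 (10.5), TGFBR1 (10.1), SMAD4 (5.59), SMAD3 (5.55), SMAD2 (3.80) and TGFB1 (2.42) to TGFB2 (0.962). The values of SMAD7 and TGFBR1 and of SMAD4 and SMAD3 overlapped, and the order within these pairs differed between siC libraries. Those of SMAD3 and SMAD2 also overlapped, but SMAD3 was above SMAD2 in each library. This rests on the lengths used, 36366 bases for SMAD2 and 9113 for SMAD3, since SMAD2 had more reads in each library. In siIGF2BP1 the order was the same. There SMAD7, at 13.2 to 15.5 FPKM, was clear of TGFBR1, at 7.63 to 9.48 FPKM, and SMAD2 and TGFB1 overlapped.

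The study concerned regulation by microRNAs, so the annotated 3′ untranslated regions of the 10 genes (GENCODE release 44, GRCh38) were searched for the match to the let-7 seed. The mature let-7a-5p (RefSeq) is shown with its seed, bases 2 to 8, in capitals, above the matches, where capitals mark the 7 bases that pair with it. Each match is printed with the 15 bases before it and the base after it, 5′ to 3′ on the strand of the gene.
let-7a-5p: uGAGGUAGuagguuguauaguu
TGFBR1, chr9:99149365-99149387, plus strand: gggaggtcaattgttCTACCTCa
SMAD2, chr18:47838048-47838070, minus strand: acccagttggtttctCTACCTCt
SMAD2, chr18:47821153-47821175, minus strand: ttcaagaagaaaactCTACCTCa

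TGFBR1 held 1 match in 4887 bases and SMAD2 held 2 in 32870 bases, and the other 8 genes held 0. Of 19550 protein-coding genes with such a region, 9.76% held a match. Only the full match to bases 2 to 8 was searched, so a count of 0 does not mean that a region has no let-7 site. Whether let-7 acts on any of the 10 genes was not tested. The long region of SMAD2 gives more room for a match than the median of 1064 bases. Outside the 10 genes, SRF, which was lower in siIGF2BP1, held 0 matches in 2316 bases. For SRF, the study's reporter assays used predicted sites of other microRNAs, which were not searched for here. IGF2BP1, the siRNA target, held 4 in 6701 bases. Only the let-7 seed was searched, and regulation by other microRNAs was not tested. According to the study, let-7 is less abundant in Huh-7 than in its ovarian cancer line.

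To set the 10 genes in their pathway, lists of further ligands, activators, receptors, regulators and response genes were read from the same fit. The lists hold 130 genes with the members, of which 78 were tested, 12 were called higher and 4 lower. Without the members they hold 120 genes, of which 69 were tested, 9 were called higher (beside 1.65% of all genes tested) and 4 lower (beside 2.28%). Their median log2 change was 0.062 (0.13 without siC replicate 3). The lists were chosen with results of these data known, and these counts depend on single libraries. Of the 130 genes, 16 were called higher and 5 lower without siC replicate 3, and 4 to 6 higher and 0 or 1 lower without any other library. In the 7 fits that each left out a library, BHLHE40 and HAMP were called in 7, INHBE in 6, KLF10 and TAGLN in 2, and each of the other 8 in 1.

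Among ligands and activators, 2 of 6 tested ligands and 3 of 8 tested activators were called, all higher. Of all genes tested, 1.65% were called higher. INHBE, a hepatocyte activin subunit, was at 4.81 FPKM in siC (SD 0.978, n = 3) against 13.6 FPKM in siIGF2BP1 (SD 1.14, n = 4) (log2 difference 1.5, limma adjusted p = 0.00154). GDF15, a stress-induced member of the superfamily, was at 23.3 FPKM (SD 3.97, n = 3) against 42.0 FPKM (SD 2.91, n = 4) (log2 difference 0.86, limma adjusted p = 0.00690). BMP2 was the most abundant ligand of the list, at 34.1 FPKM (SD 1.77, n = 3) against 38.1 FPKM (SD 2.22, n = 4), with a limma adjusted p of 0.205. Beside THBS1, the activators called were ITGB8, the beta chain of an integrin that frees latent TGF-beta (log2 change 1.23, limma adjusted p = 0.00987), and PCSK6, a proprotein convertase (log2 change 0.78, limma adjusted p = 0.00361). ITGB8 was at 0.721 FPKM in siC (SD 0.186, n = 3) against 1.80 FPKM in siIGF2BP1 (SD 0.0690, n = 4), so it reached the filter only through siIGF2BP1. PCSK6 shares exons with SNRPA1 on its own strand. FURIN, the convertase best known for cleaving the TGF-beta precursor, was at 179 FPKM (SD 30.6, n = 3) against 213 FPKM (SD 19.4, n = 4), with a limma adjusted p of 0.290.

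Of the 11 receptors and co-receptors tested, TGFBR3 was lower and HFE2, the hemojuvelin co-receptor for BMPs in hepatocytes, was higher (log2 change 0.65, limma adjusted p = 0.00659). Of all genes tested, 1.65% were called higher and 2.28% lower. Of 20 intracellular regulators tested, such as SMAD ubiquitin ligases and co-repressors, limma called 0, with 1 higher and 1 lower at an unadjusted p under 0.05, beside 11.0% and 14.8% of all genes tested. The most abundant of them was STRAP, which binds SMAD7, at 110 FPKM (SD 6.78, n = 3) against 111 FPKM (SD 2.25, n = 4). Of 4 secreted antagonists tested, FST, which traps activins, was called lower, at 25.1 FPKM (SD 1.63, n = 3) against 16.7 FPKM (SD 0.508, n = 4), with a fitted log2 difference of -0.58 (limma adjusted p = 0.00269).

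The genes known to respond to TGF-beta moved in both directions, with 3 called higher and 2 lower of 17 tested. The shares of all genes tested were 1.65% called higher and 2.28% called lower. KLF10, a TGF-beta inducible zinc finger factor (log2 change 0.67, limma adjusted p = 0.00179), BHLHE40 (0.93, limma adjusted p = 0.000873) and SMAD7 itself were higher. TAGLN, a smooth muscle actin-binding protein (log2 change -2.36, limma adjusted p = 0.00358), and TPM1, a tropomyosin (-0.49, limma adjusted p = 0.00880), were lower. Both of these encode cytoskeletal proteins and are also known as targets of SRF, and the part of SRF in their change was not tested. TAGLN reached the filter only through siC, at 2.29 FPKM (SD 0.457, n = 3) against 0.366 FPKM in siIGF2BP1 (SD 0.0961, n = 4). Its siIGF2BP1 values rest on 18 to 26 reads. TAGLN overlaps PCSK7 on the other strand. FN1, the fibronectin gene and the most abundant of the list, was at 173 FPKM (SD 26.2, n = 3) against 158 FPKM (SD 3.27, n = 4), with a limma adjusted p of 0.565. PMEPA1, COL4A2 and TWIST1 were listed at 0 in all 7 libraries.

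Of 8 BMP response genes tested, 3 were called, all higher, beside 1.65% of all genes tested called higher. At an unadjusted p under 0.05, 7 were higher, beside 11.0% of all genes tested. HAMP, which encodes hepcidin, was at 0.502, 0.550 and 0.531 FPKM in siC and at 3.17, 2.91, 2.66 and 3.30 FPKM in siIGF2BP1. Low in siC and several-fold above it in each siIGF2BP1 library, it had a log2 change of 2.30 (SE 0.139, limma adjusted p = 0.000426), called in 7 of 7 fits that left out a library. HAMP reached the filter only through its siIGF2BP1 values, and its siC values rest on 33, 53 and 22 reads. The other calls were SMAD6 and SMAD7, which are members. The list was chosen with results of these data known, so its counts describe these genes and no more. ID1, the most abundant gene of the list, was at 272 FPKM (SD 8.97, n = 3) against 306 FPKM (SD 0.989, n = 4), a log2 change of 0.17 that did not pass the threshold (limma adjusted p = 0.139).

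**Figure D4:**
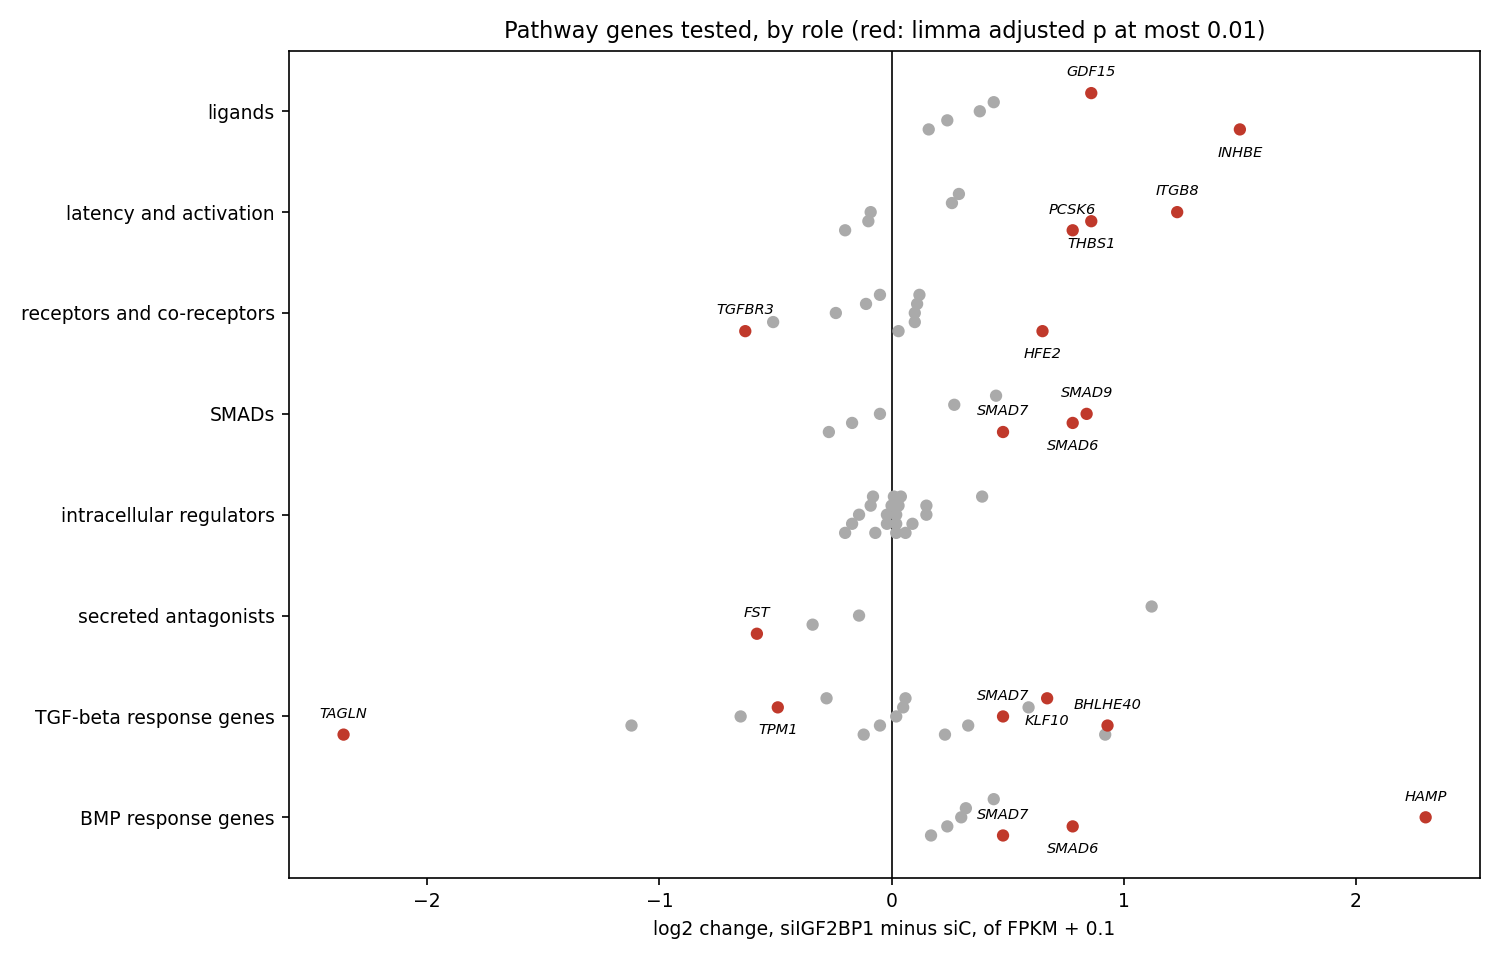
Log2 change (siIGF2BP1 minus siC, of FPKM + 0.1) of the 78 tested pathway genes, by role, with genes at a limma adjusted p of at most 0.01 in red and named. A gene in several lists is drawn in each, and heights within a row only keep points apart. Red points lie to the right of 0 in every row that has any except TGFBR3, FST, TAGLN and TPM1, and the row of intracellular regulators has 0 red points.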

How the data were processed

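Total RNA-seq of 3 siC and 4 siIGF2BP1 libraries was used. According to the study's methods and the submitters' processing notes, the authors depleted ribosomal RNA, made directional libraries, used cutadapt 1.14 for clipping, HISAT2 2.1.0 for alignment to hg38 and featureCounts 1.5.3 for counts over Ensembl 89, and tested genes with edgeR 3.18.1. The values deposited by the authors are FPKM per gene and library. The deposited log2 fold changes, p-values and FDR were not used, and 0 columns of sample values lay outside the labels.

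Sample titles gave the groups and replicate numbers. The 14839 genes whose mean reached 1 FPKM were fitted with limma 3.58.1 (R 4.3.3, mean-variance trend, two-sided, Benjamini-Hochberg adjustment over all genes tested, threshold 0.01) on log2(FPKM + 0.1), a scale that understates changes of low genes. Intervals are 95%. FPKM times gene length gave whole reads for 100% of values above 0 (tolerance 0.02), which were used for depth and for voom, which called 353 genes higher and 488 lower. The quasi-likelihood count test was not run, since the deposited unit is FPKM. The fits were tested on simulated data. All pairs of replicates differed by more than sampling noise, with chi-square over its degrees of freedom between 1.99 and 56.8. The siRNA pool's sequences and the proteins were not used here.

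The members and lists were chosen with earlier results of these data known. Named are the 10 members, IGF2BP1, SRF, each listed pathway gene past the threshold (1 gene of the lists was left out of all counts and is not reported here), the most abundant gene of each list and the 3 genes most like THBS1. The remaining genes were named after their values were seen. These are TGFB3, SMAD1, the thrombospondin family genes, the markers and genes at 0.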

Additional observations from a re-analysis of the deposited data

Results flagged for a closer look

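SMAD7 in siIGF2BP1 was flagged because 1 library lay far from the other 3. Replicate 2 was at 13.2 FPKM, and the others were at 15.1, 15.5 and 15.3 FPKM. The gap to the nearest library was 0.849 of the whole range of the group, over Dixon's 95% critical value for 4 samples. Of 23 results examined in this way 1 was flagged, and chance alone flags about 1.15. Without this library the log2 change of SMAD7 was 0.54 (limma adjusted p = 0.0103), and the cause was not tested.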

How the results depend on the processing

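The changes of THBS1 (0.84 to 0.91) and SMAD6 (0.74 to 0.84) kept their direction and their call under all alternatives but the replicate block, as did the fall of IGF2BP1 (-2.40 to -2.31). SMAD7 kept its direction in all 19 (0.45 to 0.57) and lost its call in 10, among them no filter (limma adjusted p = 0.0183), no trend (0.0159) and median centring (0.010). The labels do not say whether same-numbered libraries are paired. The correlations of same-numbered deviations from the group means were -0.026, -0.118 and -0.111. With so few libraries, and siC replicate 3 apart from the rest, these correlations cannot exclude pairing. With the replicate block 0 members and 0 pathway genes were called in either direction, THBS1 was at 0.89 (limma adjusted p = 0.0977) and IGF2BP1 at -2.36 (0.0909). The block uses up degrees of freedom, and limma then called 0 of all 14839 genes (1074 higher and 1315 lower at an unadjusted p under 0.05), against 245 higher and 338 lower without it. Reversals occurred in genes that passed no test. With a library left out, TGFBR2 ran from -0.017 to 0.11 (-0.0014 without siC replicate 1), SMAD2 from -0.30 to 0.030 and SMAD4 from -0.22 to 0.27. SMAD4 was also at 0.022 with the replicate block, at 0.20 with array weights, and at 0.18 without siC replicate 3 and siIGF2BP1 replicate 2, an alternative chosen after seeing the data. Pathway genes called higher numbered 12 as reported, 24 with array weights, 20 at a threshold of 0.05, 17 without siC replicate 3 and siIGF2BP1 replicate 2, and 4 to 16 with a library left out. Those called lower numbered 4, 2 with no filter, with a mean of at least 5 FPKM, with quantile normalization and without a trend, 8 with array weights, and 0 to 5 with a library left out. Leaving out siC replicate 3 gave 533 higher and 990 lower of all genes, and leaving out any other library 66 to 86 and 53 to 109. The causes were not tested.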

Other observations

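Just past the threshold of 0.01 lay 3 further genes of the lists, named after their values were seen. JUNB, an AP-1 subunit, was at a log2 change of 0.92 (limma adjusted p = 0.0103), BAMBI, a pseudoreceptor that dampens TGF-beta signalling, at 0.39 (0.0105), and CYR61, a matricellular protein, at -1.12 (0.0101). NODAL, a ligand best known from the embryo, was under the filter on low values, at 0.0393 FPKM in siC (SD 0.0406, n = 3) against 0.339 FPKM in siIGF2BP1 (SD 0.110, n = 4), and in the fit without a filter had a limma adjusted p of 0.0356. The NODAL values rest on 3, 2 and 0 reads in siC and on 8, 9, 7 and 11 reads in siIGF2BP1. PDGFRA, a receptor counted here among stellate cell markers, was called higher (log2 change 0.58, limma adjusted p = 0.00662). Of the other markers of that list tested, COL1A2 was at 0.33 (0.437) and LUM at -0.38 (0.0235). Under the filter, PDGFRB (0.34), COL3A1 (0.39) and COL1A1 (-0.36) were not called either, and DCN and DES were at or near 0.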
